A study of Arabidopsis thaliana with 20 samples.

Results

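The transcriptome of the inflorescence meristem (IM) was compared with that of the vegetative shoot apical meristem (SAM) in wild-type *Arabidopsis thaliana* of the accession Col-0. The comparison took every library labelled Col-0, which gave 10 of the 20 libraries of the series. There were 5 from the IM and 5 from the SAM. IM tissue came from plants sown directly on soil and grown under LED tubes, whose inflorescences were taken 31 to 33 days post germination (dpg) and trimmed until about 10 flower primordia were left. SAM tissue came from seedlings grown on a nylon mesh over agar medium under fluorescent tubes, which were taken at 7 dpg and freed of the cotyledons, the first pair of true leaves and most of the hypocotyl. Both groups were unmutated and untreated, both were grown in long days, and each library pooled about 50 meristems into RNAlater. The labels give the Col-0 IM libraries 3 harvest groups and the Col-0 SAM libraries 4. The other 10 libraries were IM and SAM of *plt3 plt7*, a Col-0 line carrying CRISPR mutations in both PLETHORA genes. They were used only to set the wild-type values beside another genotype. Tissue, plant age, substrate, light source and harvest day changed together between IM and SAM and cannot be told apart. In bulk samples of this kind, fewer cells of a type and less RNA per cell cannot be told apart either.

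The SAM of a rosette plant initiates leaves, and after the floral transition the same dome of stem cells becomes an IM that initiates flowers. The transition is held back by repressors of the FLC, SVP, TEMPRANILLO and AP2-like families, and it proceeds when FT protein from the leaves meets FD in the apex and when the SPL factors escape from the microRNA miR156. SOC1 and FUL then act in the apex, LFY and AP1 give the flank primordia floral identity, and the MADS-box genes *AP3*, *PI*, *AG* and *SEP1* to *SEP4* specify the organs of each flower.

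Both labels were checked against marker genes. All floral markers separated the groups, as *AP1*, *LFY*, *AP3*, *PI*, *AG* and *SEP3* averaged 4996, 1769.8, 5885, 4193, 1782 and 4050.2 normalised counts in the IM libraries, against 0.753, 49.6, 0.790, 23.9, 1.95 and 53.9 in the SAM libraries. The meristem genes *STM* and *KNAT1* were present in every library of both groups. *CLV3*, the peptide gene of the stem cells, was close to the detection limit in both, with 5.74, 7.01, 8.37, 7.92 and 9.11 normalised counts in the IM, against 6.88, 18.8, 5.83, 19.5 and 29.0 in the SAM, and it was too low to be tested. Library depth was 25568139 to 66985676 estimated counts in the IM and 25221416 to 29772648 in the SAM. Correlations of log2 normalised counts between libraries ran from 0.969 to 0.992 within the IM, 0.979 to 0.988 within the SAM and 0.772 to 0.80 between the tissues. IM 4 stood apart from the other IM libraries, with correlations of 0.969 to 0.982 against 0.985 to 0.992 among the rest and with 205 genes more than 2-fold above every other IM library. IM 2 had 45 such genes and SAM 1 had 49 within its own group, while no other library had more than 18. Mean fragment length was 429.97 nt in IM 4 and 350.77 to 368.94 nt in the other IM libraries, against 412.66 to 432.32 nt in the SAM libraries.

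At the level of the whole transcriptome, 19627 genes were tested. In the IM, 1938 genes (9.87%) were higher and 3375 genes (17.2%) were lower by at least 2-fold with an adjusted p under 0.05 in DESeq2. Higher, lower, rose and fell refer to these conditions below. The split of these calls was 36.5% higher to 63.5% lower. Scaling by total counts gave 2476 higher and 2802 lower (46.9% higher) and a median log2 fold change of all genes of 0.24, against 0.02. A further 8629 genes (44%) were stable, defined as an equivalence test that placed the change within 1.5-fold, and 5685 were neither called nor stable. The count of each gene list below is to be read beside these shares of 9.87% higher, 17.2% lower and 44% stable. The 5 IM values did not overlap the 5 SAM values for 11370 genes (57.9%), which included 1812 of the higher and 3182 of the lower genes. Without IM 4 the calls were 1906 higher and 3482 lower. A difference of at least 16-fold was found for 400 higher and 467 lower genes. The genes that rose held 9.37% of all normalised counts in the IM and 1.98% in the SAM. The genes that fell held 9.31% in the IM and 29.6% in the SAM, and stable genes held 59.2% in the IM and 49% in the SAM. Normalised counts are estimated counts divided by a size factor per library, and values are given for libraries 1 to 5 in that order. An error after a mean is the SD (n = 5 per group). An error after a log2 fold change (IM over SAM) is its standard error.

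**Figure D1:**
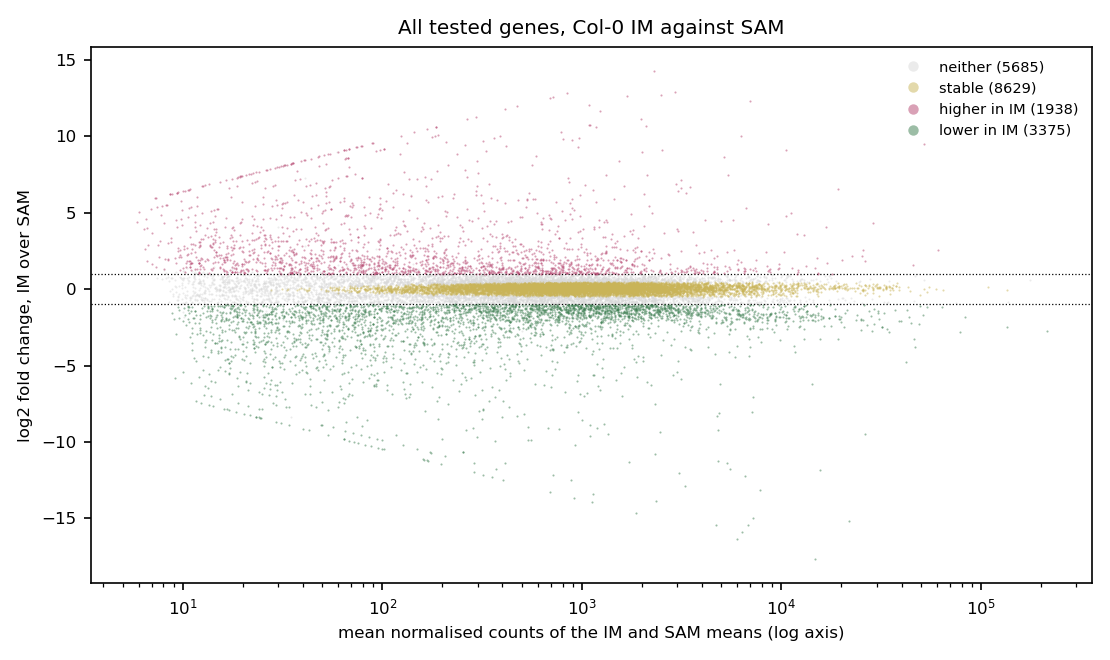
Mean normalised count of each of the 19627 tested genes over the 10 Col-0 libraries (horizontal, log scale) against its log2 fold change, IM over SAM (vertical), with points coloured by call and dotted lines at the 2-fold limits of -1 and 1. The 3375 lower genes outnumbered the 1938 higher genes, and the most extreme fold changes belonged to genes near 0 counts in one tissue.

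Among genes with a symbol and at least 100 normalised counts in the IM, the 10 largest gains were floral identity genes and genes of wall, wax and sugar metabolism. Genes without a symbol were left out of this ranking, although some rose as far, such as the B3 factor gene AT2G16210 (log2 fold change 12.64). *RXF26*, a GDSL-like lipase, had 5023, 4400.1, 4910.1, 3901 and 4629 normalised counts in the IM, against 0, 0, 0, 0 and 0 in the SAM. It was at least 1190-fold higher in the IM, measured against a floor of 3 counts per library. The wax alkane hydroxylase gene *CYP96A15* was also at 0 in every SAM library and at least 440-fold higher, and *CSLA01*, a glucomannan synthase of the cellulose synthase-like family, was at least 246-fold higher. *SWEET10*, a sugar exporter, had 2198, 2647, 2265, 1908 and 1982 normalised counts in the IM, against 6.88, 0, 0, 0 and 0 in the SAM (log2 fold change 10.75 ± 0.65, adjusted p = 1.8e-59). *ACOS5*, an acyl-CoA synthetase needed for the pollen wall, had 228, 1073, 308, 1105 and 218 normalised counts in the IM, against 0, 0, 0, 0 and 0 in the SAM. *MEE48*, a glycosyl hydrolase gene, had 333, 1754, 329, 1192 and 531 normalised counts in the IM, against 0, 0, 0, 0 and 0 in the SAM. IM 2 and IM 4 were the highest libraries for both of these genes, which were at least 152-fold and 215-fold higher in the IM. *AP3*, *SEP1*, *SEP2* and *AP1* completed the leading 10 and are given with the floral genes.

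Among genes with a symbol and at least 100 normalised counts in the SAM, the 10 largest losses included genes of glucosinolate synthesis, metal handling and surface lipids. Some genes without a symbol fell further than several of these, such as the peroxidase gene AT5G64110 (log2 fold change -13.39). *FSD1*, the iron superoxide dismutase of chloroplasts, had 10.8, 9.34, 9.25, 4.52 and 8.10 normalised counts in the IM, against 33256, 28334, 30651, 30707 and 33927 in the SAM (log2 fold change -11.80 ± 0.20, adjusted p too small to store). *NAS1*, a nicotianamine synthase that makes a metal chelator, was at 0 in every IM library and averaged 1827 ± 278 in the SAM, at least 746-fold lower in the IM. *CDEF1*, a cutinase, had 5.74, 8.57, 0, 0 and 1.01 normalised counts in the IM, against 10498, 13296, 13085, 6959 and 11132 in the SAM. The lipase gene *TLL1* averaged 1.2 ± 1.14 in the IM and 6146 ± 732 in the SAM, and the jacalin lectin gene *JAL22* averaged 0.314 ± 0.495 in the IM and 4687 ± 714 in the SAM. *PRB1*, a basic PR1-type protein, was at 0 in every IM library and at least 262-fold lower there. *CIB1*, a bHLH partner of cryptochrome, was at 0 in every IM library as well, but all of its sequence words, meaning every stretch of 31 bases in its transcript, also occur in another annotated gene, so its count is uncertain. *CYP79F1*, *MAM1* and *BCAT4* are given with the glucosinolate genes. By a stricter rule of at least 1 TPM in all 5 libraries of one tissue and under 0.1 TPM in all 5 of the other, 107 genes were present only in the IM and 95 only in the SAM. The most abundant with a symbol were *AP3*, *RXF26*, *SEP2*, *SEP1* and *LTP4* in the IM and *MAM1*, *BCAT4*, *CYP79F1*, *TLL1* and *JAL22* in the SAM.

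Among 15 floral repressors, 8 were lower in the IM, 2 were higher and 2 were stable, with a median log2 fold change of -1.72 beside 0.02 for all genes. Log2 fold changes of the list ran from -9.67 to 2.15, and the 2 members that rose are not among those detailed here. *FLC*, the MADS-box repressor silenced by cold, had 31.6, 20.2, 23.8, 40.7 and 25.3 normalised counts in the IM, against 293, 286, 349, 401 and 339 in the SAM (log2 fold change -3.59 ± 0.18, adjusted p = 1.4e-82). *SVP*, its partner, had 460.3, 470.3, 442, 453 and 445 normalised counts in the IM, against 2368, 2010.4, 2043, 1963 and 1854 in the SAM (log2 fold change -2.17 ± 0.075, adjusted p = 8.9e-182). Neither gene overlapped between the tissues. Of the AP2-like repressors targeted by miR172, *SNZ*, *TOE1* and *SMZ* fell by more, and *TOE2* and *TOE3* are not detailed here. *SNZ* had 0, 0.779, 1.76, 0 and 0 normalised counts in the IM, against 622, 614, 575, 638 and 523 in the SAM (log2 fold change -9.67 ± 0.66, adjusted p = 3.3e-48). *TOE1* had 195, 189, 192, 201 and 179 normalised counts in the IM, against 2910.3, 2962, 2965, 2553 and 2619 in the SAM (log2 fold change -3.87 ± 0.076, adjusted p too small to store). Both were far below their SAM range in every IM library. *SMZ* averaged 8.64 ± 3.42 in the IM and 386 ± 75.0 in the SAM (log2 fold change -5.56 ± 0.27, adjusted p = 9e-91), although 26.2% of its words are shared with other transcripts. *TEM2*, a repressor of *FT*, was uneven within the IM, with 2.15, 25.7, 3.08, 45.2 and 5.06 normalised counts in the IM, against 3051, 2169.7, 1318, 1784 and 1804 in the SAM (log2 fold change -6.98 ± 0.77, adjusted p = 6.6e-19). IM 2 and IM 4 were the high libraries of *TEM2*, and all IM values were below the lowest SAM value. *AP2* itself was not called, at 1879 ± 82.9 in the IM and 1168 ± 167 in the SAM (log2 fold change 0.69 ± 0.092, adjusted p = 4.1e-13).

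Of 21 integrators and floral meristem identity genes, 14 were expressed enough to be tested, and 11 of these were higher in the IM and none lower (median log2 fold change 2.79). *FT* itself was near 0 in the apex, with 1.44 normalised counts in IM 1 and 0 in the other 9 libraries, and its homologue *TSF* had at most 7.18 in the IM and 6.88 in the SAM. *FD*, the bZIP partner of FT, had 1150.4, 1071, 1150, 1105 and 1179 normalised counts in the IM, against 234, 249.7, 231, 271 and 278 in the SAM (log2 fold change 2.16 ± 0.078, adjusted p = 4.3e-168). *SOC1*, a MADS-box integrator of several flowering signals, had 972, 1054, 916, 981 and 958 normalised counts in the IM, against 363, 247, 247, 243 and 181 in the SAM (log2 fold change 1.93 ± 0.14, adjusted p = 2.5e-42). Both were already expressed in the SAM, whereas *FUL*, which acts beside *SOC1*, was nearly absent from it. *FUL* had 1226, 1233, 1079.5, 1034 and 1050.5 normalised counts in the IM, against 11.0, 2.51, 4.67, 2.59 and 0 in the SAM (log2 fold change 8.10 ± 0.37, adjusted p = 2.7e-103). *LFY* had 2024, 1729, 1777, 1672 and 1646 normalised counts in the IM, against 42.7, 43.9, 37.3, 61.0 and 63.3 in the SAM (log2 fold change 5.16 ± 0.14, adjusted p too small to store). *AP1* had 5185, 4526, 5002, 5024 and 5241 normalised counts in the IM, against 0, 3.76, 0, 0 and 0 in the SAM, and since it had 3 SAM counts in all, its ratio was 6630 (95% counting interval 2270 to 32200). The ranges did not overlap for any of these genes. *CAL*, the close relative of *AP1*, averaged 679.7 ± 26.9 in the IM and 5.88 ± 4.74 in the SAM (log2 fold change 6.85 ± 0.31, adjusted p = 3.1e-105). *AGL42*, a relative of *SOC1*, averaged 598 ± 63.7 in the IM and 3.13 ± 2.30 in the SAM (log2 fold change 7.61 ± 0.43, adjusted p = 2.2e-68). *FTM1*, a desaturase gene named for its early induction at the floral transition, averaged 2844 ± 877 in the IM and 47.7 ± 28.8 in the SAM (log2 fold change 5.90 ± 0.38, adjusted p = 5.9e-52). *AGL24*, a MADS-box partner of *SOC1*, was not called (232 ± 30.4 in the IM and 406 ± 85.7 in the SAM, log2 fold change -0.80 ± 0.16, adjusted p = 8.2e-07). *TFL1*, which keeps the inflorescence indeterminate, averaged 60.6 ± 14.4 in the IM and 30.4 ± 5.05 in the SAM and lay at the 2-fold limit (log2 fold change 1.00 ± 0.26, adjusted p = 0.0002).

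Of the 10 SPL genes on the list, 8 were higher in the IM and none was lower (median 2.69). *SPL3* had 7419, 6987, 5603, 5615 and 5475 normalised counts in the IM, against 59.2, 40.2, 49, 44.1 and 27.7 in the SAM (log2 fold change 7.14 ± 0.16, adjusted p too small to store). *SPL4* had 7456, 6475, 6550, 6698 and 7126 normalised counts in the IM, against 90.9, 47.7, 72.3, 71.4 and 58.1 in the SAM (log2 fold change 6.66 ± 0.11, adjusted p too small to store). *SPL9* had 4215, 4082, 4023, 3467 and 3782 normalised counts in the IM, against 539.7, 617, 641, 651 and 713 in the SAM (log2 fold change 2.63 ± 0.081, adjusted p = 3.7e-226). *SPL10*, of the same miR156-targeted group, averaged 3293 ± 137 in the IM and 489 ± 65.4 in the SAM (log2 fold change 2.75 ± 0.084, adjusted p = 1e-234). No SPL gene named here overlapped between the tissues. Per transcript length, *SPL3* stood at 333 TPM in the IM and 1.95 TPM in the SAM, *SPL4* at 294 TPM in the IM and 2.44 TPM in the SAM and *SPL9* at 90.8 TPM in the IM and 11.8 TPM in the SAM. *SPL5* (7.30) and *SPL15* (3.26) were higher too, with 24.3% and 96.5% of their words shared with other genes, so the estimate for *SPL15* is uncertain.

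**Figure D2:**
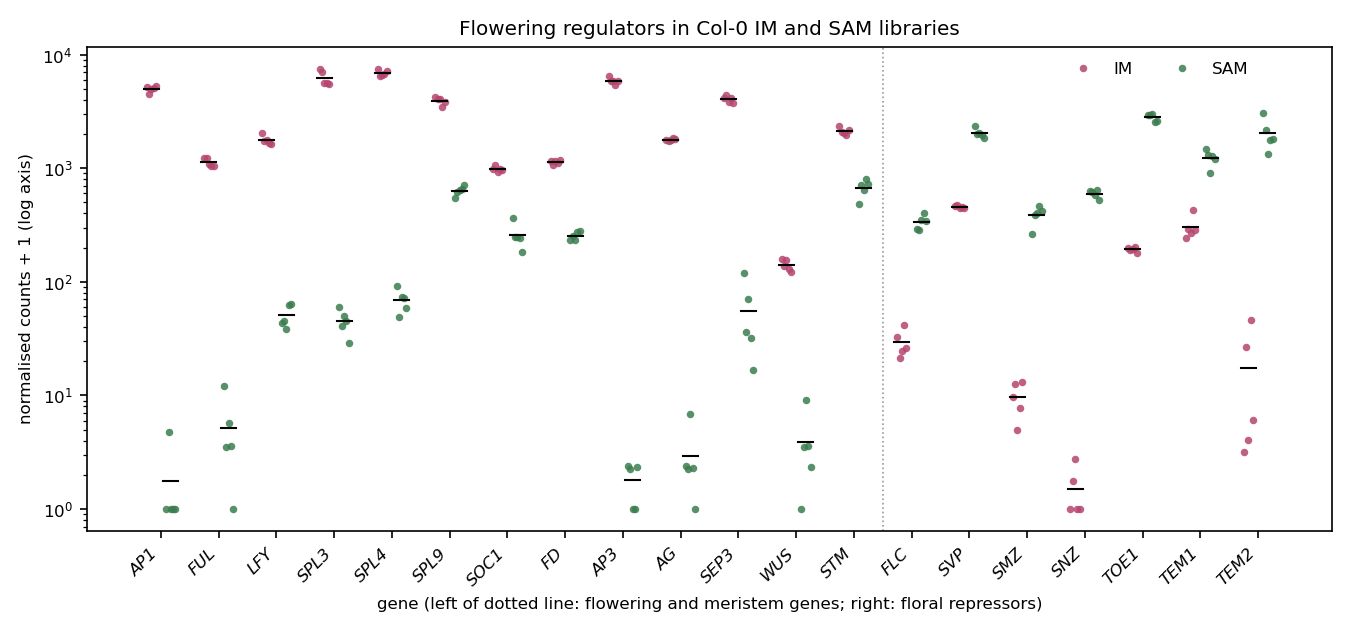
Normalised counts plus 1 (vertical, log scale) of flowering regulators in each of the 5 Col-0 IM and 5 Col-0 SAM libraries, with the group mean as a line. Flowering and meristem genes stand left of the dotted line and floral repressors right of it, and the IM points lie above the SAM points for *AP1*, *FUL*, *LFY*, *SPL3*, *SPL4*, *SPL9*, *SOC1* and *FD* and below them for *FLC*, *SVP*, *SMZ*, *SNZ*, *TOE1* and *TEM2*. *TEM1* is drawn among the repressors as well, and its values are not detailed in the text.

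Floral organ identity genes were the group with the highest median. Of 15 genes, 14 were tested and 13 were higher in the IM, with a median log2 fold change of 7.94, or 7.10 with genes at 0 in the SAM set to their bound. The class B gene *AP3* had 6421, 5803, 5867, 5432 and 5903 normalised counts in the IM, against 1.38, 1.3, 0, 0 and 1.32 in the SAM, a ratio of 7450 (95% counting interval 2550 to 36100). Its partner *PI* had 4273, 4029, 4058, 4440.4 and 4166 normalised counts in the IM, against 57.8, 7.53, 29.2, 15.6 and 9.24 in the SAM (log2 fold change 7.46 ± 0.48, adjusted p = 5e-53). The class C gene *AG* had 1783, 1723, 1756, 1835 and 1812 normalised counts in the IM, against 1.38, 1.3, 5.83, 1.3 and 0 in the SAM (log2 fold change 9.77 ± 0.51, adjusted p = 3e-79). Every IM library was above every SAM library for all 3 genes. *SEP3*, the cofactor that joins organ identity complexes, averaged 4050.2 ± 262 in the IM and 53.9 ± 40.9 in the SAM (log2 fold change 6.23 ± 0.46, adjusted p = 1.7e-41). *SEP1* and *SEP2* averaged 2476 and 3949 in the IM and 0.794 and 1.78 in the SAM. *CRC*, a YABBY gene of carpels and nectaries, averaged 4007 ± 346 in the IM and 8.08 ± 3.41 in the SAM (log2 fold change 8.98 ± 0.27, adjusted p = 1.6e-237). The sporocyte gene *SPL* (*SPOROCYTELESS*) averaged 379 ± 17.3 in the IM and 0.275 ± 0.616 in the SAM, a ratio of 1380 (95% counting interval 247 to 54400). These libraries include the flower primordia left on the IM, and their part in these values was not tested.

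Of 22 stem cell and meristem maintenance genes, 21 were tested, of which 5 were higher, 1 was lower and 6 were stable (median 0.49), beside 9.87% higher and 17.2% lower of all tested genes. *WUS*, the homeobox gene of the organising centre, had 157, 136, 155, 129 and 121 normalised counts in the IM, against 0, 2.51, 8.17, 2.59 and 1.32 in the SAM (log2 fold change 5.52 ± 0.45, adjusted p = 3.9e-33). The KNOX gene *STM* had 2345, 2074, 2057, 1955 and 2169 normalised counts in the IM, against 482, 710.3, 642, 807 and 719 in the SAM (log2 fold change 1.66 ± 0.11, adjusted p = 3.2e-46). Its relative *KNAT2* averaged 509 ± 23.9 in the IM and 176 ± 37.9 in the SAM (log2 fold change 1.53 ± 0.13, adjusted p = 5.3e-30). *KNAT1* was above every SAM value in every IM library but differed by less than 2-fold, at 1738 ± 113 in the IM and 1254 ± 206 in the SAM (log2 fold change 0.47 ± 0.11, adjusted p = 3.4e-05). *ATH1*, a BELL homeobox gene of the rosette, was the member that fell, with 931, 813, 949, 1139.8 and 1094 normalised counts in the IM, against 2395, 2573, 2902, 2774 and 2794 in the SAM (log2 fold change -1.45 ± 0.095, adjusted p = 1.9e-51). The PLETHORA genes *PLT3* (1.19 ± 0.13) and *PLT7* (1.2 ± 0.19) were higher in the IM, and *PLT5* (0.47) was not called. *PLT3* shares 13.8% of its words with other genes. *ANT*, an AP2-type growth gene of organ primordia, averaged 7367 ± 369.6 in the IM and 3824 ± 381 in the SAM and stayed just under 2-fold (log2 fold change 0.95 ± 0.072, adjusted p = 2.2e-38). The receptor kinase gene *CLV1* stayed just under it in the other direction, at 1269 ± 77.5 in the IM and 2474 ± 300.4 in the SAM (log2 fold change -0.96 ± 0.088, adjusted p = 6.1e-27).

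Organ boundary genes were mixed, with 8 of 14 higher, 4 lower and 2 stable (median 1.14). *CUC1*, a NAC gene of organ boundaries, had 597, 635, 615, 689 and 606 normalised counts in the IM, against 42.7, 94.1, 117, 122 and 69.9 in the SAM (log2 fold change 2.81 ± 0.20, adjusted p = 9.1e-46). *CUC2*, also a NAC gene that separates organs, averaged 849.7 ± 63.4 in the IM and 219 ± 45 in the SAM (log2 fold change 1.96 ± 0.13, adjusted p = 1.4e-52). The MYB genes of axillary meristems rose as well, with *RAX1* at 100.2 ± 13.1 in the IM and 15 ± 5.32 in the SAM (log2 fold change 2.75 ± 0.27, adjusted p = 5.6e-24). *RAX2* averaged 189 ± 22.4 in the IM and 34.2 ± 13.7 in the SAM (log2 fold change 2.46 ± 0.23, adjusted p = 1.9e-25), and *RAX3* 45.4 ± 5.82 in the IM and 6.30 ± 3.59 in the SAM (log2 fold change 2.88 ± 0.40, adjusted p = 1.6e-12). *DRN*, an AP2-type gene of cotyledon and meristem patterning, fell, averaging 20.2 ± 2.22 in the IM and 80.1 ± 5.61 in the SAM (log2 fold change -1.98 ± 0.21, adjusted p = 3.1e-20).

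Genes of leaves and other cell types were read as whole lists, since a dissected apex carries some of each. The 18 leaf development genes had 4 higher, 1 lower and 6 stable members and a median of -0.14, or 0.08 with total-count scaling, and their summed normalised counts were 40430 to 45240 in the IM libraries and 29530 to 36540 in the SAM libraries. *YAB1*, *KAN2*, *TCP10* and *AN3* were the 4 that rose (log2 fold changes 1.42, 1.65, 1.26 and 1.63), and *YAB5* fell (-2.38). All 5 are known from leaf primordia, and *YAB1* and *AN3* also act in floral organs. Trichome and stomatal lineage genes had 7 lower, 1 higher and 1 stable member of 16 (median -0.99), with sums of 5034 to 5870 in the IM libraries and 7063 to 8246 in the SAM libraries. *GL1*, the MYB gene that starts trichomes, averaged 38.2 ± 8.38 in the IM and 228 ± 42.1 in the SAM (log2 fold change -2.60 ± 0.20, adjusted p = 1.5e-38). In contrast *TRY*, a small MYB that inhibits them, averaged 257 ± 17.9 in the IM and 26.7 ± 9.71 in the SAM (log2 fold change 3.26 ± 0.20, adjusted p = 2.6e-61). The other small MYB genes *ETC1* (-4.83) and *ETC2* (-4.34) and the stomatal peptide genes *EPF1* (-2.12) and *EPF2* (-1.81) fell.

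Vascular genes were mostly lower in the IM, with 10 of 14 lower, none higher and 1 stable (median -1.77), and sums of 4401 to 5281 in the IM libraries and 10130 to 11840 in the SAM libraries. *SUC2*, the phloem sucrose transporter, had 101, 234, 184, 309 and 166 normalised counts in the IM, against 1088, 991, 979, 769 and 751 in the SAM (log2 fold change -2.21 ± 0.22, adjusted p = 3.3e-22). *XCP1*, a protease of xylem vessels, had 61.8, 98.1, 48.5, 61.1 and 53.6 normalised counts in the IM, against 447, 576, 483, 636 and 592 in the SAM (log2 fold change -3.09 ± 0.18, adjusted p = 3.9e-63). *SEOR1* of sieve elements (-2.11), the secondary wall cellulose synthase *IRX1* (-1.82), *XCP2* (-2.16) and the vessel regulator *VND6* (-2.0) fell too. Of 12 root and hypocotyl genes only 6 were tested, of which 2 were lower, 3 were stable and none was higher (median 0.06). The root hair genes *RHD6*, *RSL4* and *COBL9* and the root stem cell genes *PLT1* and *PLT2* were at or near 0 in all libraries. *PHO1*, which loads phosphate into the xylem, had 32.3, 82.5, 25.1, 33.9 and 18 normalised counts in the IM, against 1535, 2315, 1849, 1489 and 2169 in the SAM (log2 fold change -5.61 ± 0.38, adjusted p = 1.1e-47). The quiescent centre gene *WOX5* averaged 26.8 ± 6.67 in the IM and 130 ± 27.6 in the SAM (log2 fold change -2.30 ± 0.24, adjusted p = 1.1e-21). The summed root list was 2676 to 2981 in the IM libraries and 4156 to 4938 in the SAM libraries. *PHO1* carried most of that gap, so the sums do not describe the list as a whole. The part of vascular, hypocotyl and leaf cells in the other calls was not tested.

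Anther, tapetum and meiosis genes were higher for 7 of 13 tested and lower for none (median 1.40). Genes of the tapetum, the nurse tissue of pollen, were at or near 0 in the SAM and uneven in the IM. *AMS*, a bHLH gene of the tapetum, had 284, 1090.1, 279.8, 398 and 297 normalised counts in the IM, against 2.75, 1.3, 0, 0 and 1.32 in the SAM (log2 fold change 8.83 ± 0.90, adjusted p = 8.4e-22). *A9*, a marker of the same tissue, had 76.8, 443, 75.8, 40.7 and 106 normalised counts in the IM, against 0, 0, 0, 0 and 0 in the SAM. *DYT1*, which acts upstream of *AMS*, had 177, 187, 109.7, 188 and 121 normalised counts in the IM, against 0, 0, 0, 0 and 0 in the SAM. IM 2 held the highest value of *AMS* and *A9*. The fold was at least 38.6 for *A9* and at least 40.7 for *DYT1*. *TDF1*, a MYB gene between these, averaged 111 ± 50.2 in the IM and 0.760 ± 0.698 in the SAM, a ratio of 146 (95% counting interval 50 to 706). The receptor kinase gene *EMS1* was even, at 3664 ± 283 in the IM and 694 ± 64.5 in the SAM (log2 fold change 2.40 ± 0.08, adjusted p = 3.5e-194). *SYN1*, the meiotic cohesin, averaged 105 ± 27.7 in the IM and 12.6 ± 4.82 in the SAM (log2 fold change 3.06 ± 0.32, adjusted p = 7.4e-21). The summed list was 6070 to 7892 in the IM libraries and 2311 to 2825 in the SAM libraries.

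Photosynthesis genes fell throughout. All 40 nuclear genes for photosystem subunits, antenna proteins and carbon fixation were lower in the IM, with log2 fold changes between -4.77 and -1.67 and a median of -2.37. Their summed normalised counts were 329400 to 378100 in the IM libraries and 1502000 to 2998000 in the SAM libraries. Antenna proteins of the LHC families bind chlorophyll around the photosystems, and several of their genes, like those of the Rubisco small subunit (RBCS), are near copies that share part of their words, so the split of counts among copies is uncertain. *LHCB1.3* had 50636, 56080, 57604, 58622 and 53464 normalised counts in the IM, against 523120, 331640, 390680, 322650 and 286850 in the SAM (log2 fold change -2.75 ± 0.13, adjusted p = 1.3e-94). *RBCS1A* had 40124, 42578, 38935, 44460 and 35328 normalised counts in the IM, against 340630, 206250, 230540, 189070 and 179550 in the SAM (log2 fold change -2.51 ± 0.19, adjusted p = 5e-38). *RCA*, the Rubisco activase, had 7877, 9313, 8594, 9240.3 and 8126 normalised counts in the IM, against 93742, 55937, 63100, 49146 and 41914 in the SAM (log2 fold change -2.82 ± 0.22, adjusted p = 3.7e-37). The IM values of all 3 genes spread little and lay below every SAM value, and SAM 1 was the highest library for each. The largest losses of the list were *LHCB1.1* (-4.77), *RBCS2B* (-4.08), *LHCB1.2* (-3.76) and *RBCS1B* (-3.69). The IM still held 2111 TPM of *LHCB1.3*, against 11390 TPM in the SAM. Plastid ribosomal protein genes of the nucleus had 7 of 13 lower and none higher (median -1.17). Of 86 tested genes of the plastid genome 34 were lower and 2 higher, and the share of all counts from that genome was 0.989 ± 0.149% in the IM and 1.75 ± 0.17% in the SAM (n = 5 each, exact permutation test, two-sided p = 0.00794, the smallest that 5 against 5 can give, and 0.0185 adjusted over 7 library properties).

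The promoters of this list were read for the G-box, CACGTG, which is bound by bHLH and bZIP factors of the light response and reads the same on both strands. In the window of 250 bases before to 50 after the annotated start, 12 of 40 held one, beside 7.68% of 27444 annotated promoters of the RefSeq TAIR10.1 build. The 200 bases before the start of *LHCA4* (chr3:17495034-17495233, minus strand, log2 fold change -2.50) and *LHCB4.1* (chr5:208666-208865, plus strand, -2.29) are shown because they carry one each, in capitals, on the strand shown.
LHCA4: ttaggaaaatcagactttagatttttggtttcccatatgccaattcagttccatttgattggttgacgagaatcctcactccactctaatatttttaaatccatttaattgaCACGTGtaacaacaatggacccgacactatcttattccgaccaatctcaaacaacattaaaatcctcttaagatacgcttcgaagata
LHCB4.1: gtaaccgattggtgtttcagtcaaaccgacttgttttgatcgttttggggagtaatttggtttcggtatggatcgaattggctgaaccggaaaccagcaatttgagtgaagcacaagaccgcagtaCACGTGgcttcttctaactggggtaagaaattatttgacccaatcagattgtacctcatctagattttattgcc
Over all tested genes the G-box was found in 9.91% of higher, 8.98% of lower and 8.64% of stable genes, and a match describes letters only.

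Glucosinolate biosynthesis had the lowest median of the 24 lists. These sulphur compounds defend Brassicaceae against insects, and they are made from methionine in an aliphatic branch and from tryptophan in an indole branch. Of 25 genes 23 were tested, of which 19 were lower in the IM, none was higher and 2 were stable (median -3.80). *CYP79F1*, the cytochrome P450 that opens the aliphatic core pathway, had 0, 0.779, 0, 0 and 0 normalised counts in the IM, against 8701, 11544, 9378, 8309 and 9096 in the SAM, and its single IM read gave a ratio of SAM over IM of 60400 (95% counting interval 10800 to 2390000). *MAM1*, which elongates the methionine chain, had 2.87, 3.11, 0.881, 1.13 and 1.01 normalised counts in the IM, against 12941, 18709, 15819, 15433 and 15410 in the SAM (log2 fold change -13.12 ± 0.43, adjusted p = 1.5e-203). *BCAT4*, the aminotransferase before it, had 0.718, 0.779, 0.881, 0 and 2.02 normalised counts in the IM, against 6346, 7767, 6614, 5859 and 6466 in the SAM (log2 fold change -12.88 ± 0.60, adjusted p = 6.9e-102), with 19.5% of its words shared with a gene that overlaps it on the other strand. Each of the 3 was within a few counts of 0 in every IM library. *FMOGS-OX1*, a side chain oxygenase, averaged 1.3 ± 1.12 in the IM and 1106 ± 128 in the SAM (log2 fold change -9.88 ± 0.52, adjusted p = 1.1e-78). *CYP79F2*, the partner of *CYP79F1*, averaged 0.548 ± 0.881 in the IM and 399 ± 106 in the SAM, a SAM over IM ratio of 728 (95% counting interval 249 to 3530). *MYB76*, a regulator of the branch, was at 0 in every IM library and averaged 203 ± 33.5 in the SAM, at least 83-fold lower in the IM. The 4 tested members that did not fall are named after their values were seen. They were *CYP83B1* of the indole branch (2208 in the IM and 2093 in the SAM, log2 fold change 0.08 ± 0.18, adjusted p = 0.72, stable), the sulphotransferase *SOT16* (1742 in the IM and 1919.9 in the SAM, log2 fold change -0.14 ± 0.12, adjusted p = 0.3, stable) and the myrosinases *TGG1* (15808 in the IM and 25951 in the SAM, -0.72) and *TGG2* (22143 in the IM and 13284 in the SAM, 0.74), which split glucosinolates in damaged tissue.

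**Figure D3:**
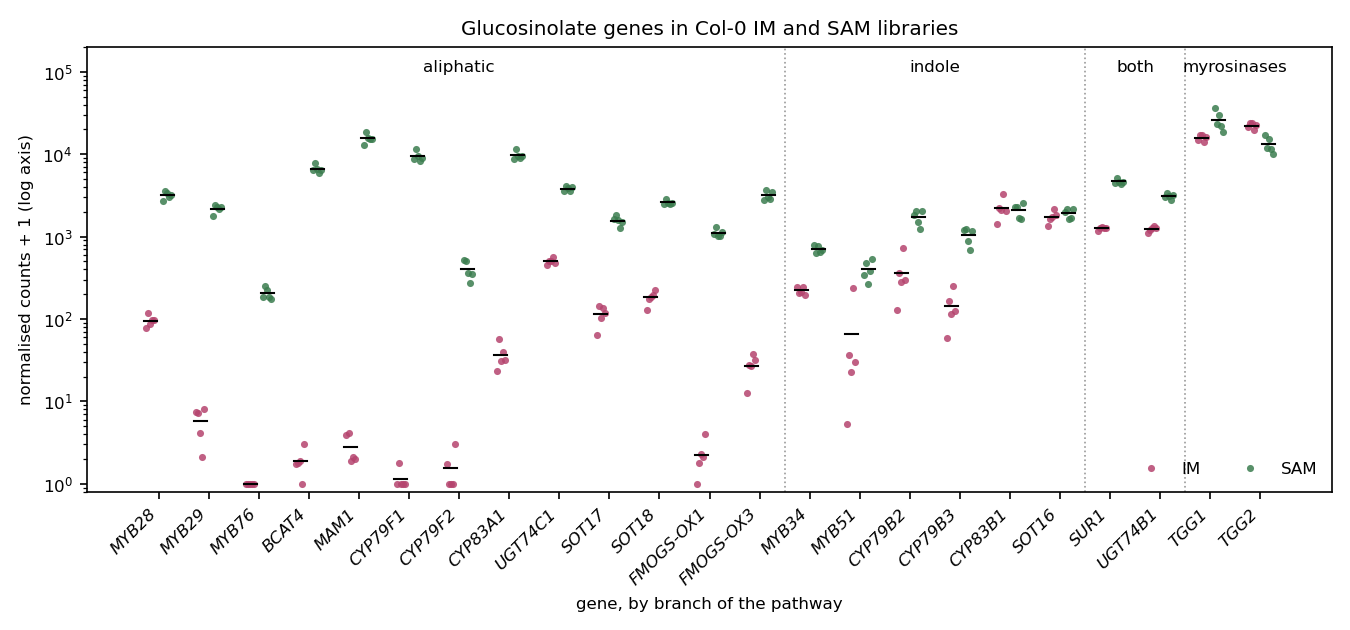
Normalised counts plus 1 (log scale) of 23 glucosinolate genes in each Col-0 IM and SAM library, grouped as aliphatic branch, indole branch, steps of both and myrosinases. Aliphatic genes such as *CYP79F1* and *MAM1* lie near 0 in the IM, whereas *CYP83B1* and *SOT16* of the indole branch overlap between the tissues. Apart from these and the myrosinases, every tested gene of either branch was lower in the IM.

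Nutrient and stress lists followed several directions. Of 12 tested phosphate starvation genes, 6 were higher in the IM and 1 was lower (median 1.41). *PAP17*, an acid phosphatase, had 1429.8, 1096, 1161, 1069.7 and 1129 normalised counts in the IM, against 97.7, 72.8, 86.3, 81.7 and 52.8 in the SAM (log2 fold change 3.91 ± 0.14, adjusted p = 9.4e-167). *SPX1*, a phosphate sensor, averaged 1198 ± 152 in the IM and 285 ± 51.0 in the SAM (log2 fold change 2.07 ± 0.13, adjusted p = 3.3e-58). The galactolipid synthase *MGD2* averaged 419 ± 42.1 in the IM and 98.1 ± 20.9 in the SAM (log2 fold change 2.1 ± 0.14, adjusted p = 2e-46). All 3 rose in every IM library relative to every SAM library. The phosphatase *PS2* averaged 199 ± 42.9 in the IM and 27.5 ± 12.6 in the SAM (log2 fold change 2.86 ± 0.27, adjusted p = 4e-26). *GDPD1*, a glycerophosphodiesterase, was higher as well (3.41), with 43.5% of its words shared. The phosphate importer *PHT1;1* was the member that fell, at 0 in every IM library and 151 on average in the SAM, at least 61.7-fold lower, with 49.9% of its words shared with other genes. Substrate differed between the tissues, and its part in this list cannot be told apart from that of tissue.

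The core genes of low oxygen response had 8 higher, 3 lower and 1 stable of 13 (median 2.50). *ADH1*, alcohol dehydrogenase, had 2015, 2522, 3139.7, 2049 and 2261 normalised counts in the IM, against 179, 253, 224, 201 and 274 in the SAM (log2 fold change 3.4 ± 0.14, adjusted p = 5.1e-122). *PDC1*, pyruvate decarboxylase, averaged 210.2 ± 43.9 in the IM and 18.4 ± 5.34 in the SAM (log2 fold change 3.51 ± 0.25, adjusted p = 3.2e-42). The sucrose synthase *SUS1* averaged 3277 ± 311 in the IM and 271 ± 15 in the SAM (log2 fold change 3.6 ± 0.088, adjusted p too small to store). The IM was above the SAM in every library for these 3. *PCO1* and *PCO2*, the cysteine oxidases that sense oxygen, averaged 1251 and 472 in the IM and 139 and 34.0 in the SAM (log2 fold changes 3.17 and 3.79). *SUS4*, another sucrose synthase, fell (-2.88), as did the haemoglobin gene *HB1* (-1.32) and the ethylene synthesis gene *ACO1* (-1.74).

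Cold, drought and abscisic acid genes had 9 higher and 3 lower of 17 tested (median 1.56). *KIN2*, a small hydrophilic cold protein, had 34538, 36904, 34147, 23836 and 28650 normalised counts in the IM, against 2822, 1891, 1579, 1476 and 1764 in the SAM (log2 fold change 4.05 ± 0.21, adjusted p = 1.7e-80). *HAI1*, a phosphatase of abscisic acid signalling, averaged 1352 ± 92.1 in the IM and 55.6 ± 16.6 in the SAM (log2 fold change 4.62 ± 0.14, adjusted p = 2.2e-247). *KIN1*, the close relative of *KIN2*, averaged 287 ± 76.6 in the IM and 11.3 ± 2.86 in the SAM (log2 fold change 4.67 ± 0.29, adjusted p = 3.7e-56). *RD20* and *HAI2* were uneven, as IM 4 held 1221 and 308 normalised counts and the other IM libraries fewer (log2 fold changes 6.45 and 3.86). *RD29A*, the classical reporter of this response, was higher by less (log2 fold change 1.31). *CBF1*, the cold-induced activator of several of these genes, had 2.15, 6.23, 5.29, 19.2 and 13.2 normalised counts in the IM, against 526, 282, 35.0, 6.49 and 43.5 in the SAM (log2 fold change -4.29 ± 1.04, adjusted p = 6.9e-05), a call whose groups overlapped at SAM 4. Of 10 tested heat shock genes 2 were higher, 1 was lower and 2 were stable (median 0.47), beside 9.87% higher, 17.2% lower and 44% stable of all tested genes. The heat shock factor *HSFA2* averaged 95.5 ± 19.6 in the IM and 21.3 ± 4.59 in the SAM (log2 fold change 2.16 ± 0.26, adjusted p = 1.5e-16). The small chaperone *HSP17.6II* averaged 20.4 ± 8.07 in the IM and 5.50 ± 5.0 in the SAM with overlapping groups (log2 fold change 1.86 ± 0.61, adjusted p = 0.004). *HSFA7A*, another factor, averaged 4.78 ± 6.01 in the IM and 199.7 ± 33.2 in the SAM (log2 fold change -5.42 ± 0.83, adjusted p = 2.5e-10).

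Defence genes of the salicylate and jasmonate pathways had 7 higher, 4 lower and 1 stable of 22 tested, with a median of 0.58 that was 0.18 without IM 4. *VSP1*, a vegetative storage protein induced by jasmonate, had 105360, 110380, 110420, 92031 and 97860 normalised counts in the IM, against 159.7, 178, 92.2, 126 and 169 in the SAM (log2 fold change 9.48 ± 0.13, adjusted p too small to store). It was among the most abundant transcripts of the IM, at 3582 TPM in the IM and 4.19 TPM in the SAM. *VSP2* averaged 20434 ± 2597 in the IM and 749 ± 277 in the SAM (log2 fold change 4.77 ± 0.25, adjusted p = 1.9e-78). *LOX2*, the lipoxygenase of chloroplasts that opens jasmonate synthesis, averaged 23822 ± 3063 in the IM and 2018 ± 1824 in the SAM (log2 fold change 3.56 ± 0.50, adjusted p = 2.3e-12). The jasmonate repressors *JAZ5* and *JAZ10* rose (2.60 and 2.56). Log2 fold changes of the list ran from -2.74 to 9.48, and the 4 members that fell are not among those detailed here. *PR2*, a glucanase induced by salicylate, had 32.3, 216, 81.1, 404 and 282 normalised counts in the IM, against 0, 0, 0, 0 and 1.32 in the SAM, a ratio of 770 (95% counting interval 138 to 30400). *PR1* averaged 22.2 ± 42.2 in the IM and 0 in the SAM and reached the count minimum in too few libraries to be tested.

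Hormone genes moved by member rather than by list. Of 28 auxin genes 8 were higher, 7 lower and 4 stable (median 0.45), beside 9.87% higher, 17.2% lower and 44% stable of all tested genes. *PIN3*, an auxin exporter of the stem and hypocotyl, had 192, 168, 208, 161 and 206 normalised counts in the IM, against 2460.1, 3048, 2654, 2699.7 and 2592 in the SAM (log2 fold change -3.84 ± 0.091, adjusted p too small to store). *PIN4*, also an exporter, averaged 131 ± 14.3 in the IM and 2137 ± 427 in the SAM (log2 fold change -4.04 ± 0.14, adjusted p = 8.6e-191). Their ranges lay far apart. *ARF5*, the response factor that starts flower primordia, had 8992, 8932, 10238, 8969 and 10433 normalised counts in the IM, against 2230.2, 2626, 2606, 2557 and 2838 in the SAM (log2 fold change 1.89 ± 0.075, adjusted p = 2.1e-136). The kinase gene *PID* rose with it (1.92), and the early auxin response genes *IAA1* (-2.47) and *IAA29* (-3.32) fell.

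Of 33 tested cytokinin genes 4 were higher (12.1%), 9 lower (27.3%) and 11 stable (median -0.23). All tested genes were 9.87% higher, 17.2% lower and 44% stable. *IPT3*, a synthesis enzyme of vascular tissue, had 0, 0, 0, 0 and 1.01 normalised counts in the IM, against 159.7, 195, 217, 145 and 218 in the SAM, a SAM over IM ratio of 923 (95% counting interval 166 to 36500), and *IPT5*, another synthesis gene, averaged 0.156 in the IM and 27.4 in the SAM, a ratio of 176 (95% counting interval 32 to 6960). *LOG1*, an activating enzyme, averaged 174 ± 32.9 in the IM and 1073 ± 270 in the SAM (log2 fold change -2.63 ± 0.17, adjusted p = 4.5e-52). The phosphotransfer gene *AHP4* averaged 0.452 in the IM and 157 in the SAM, a ratio of 347 (95% counting interval 96 to 2870). All 4 were lower in every IM library than in any SAM library. The transporter gene *PUP18* averaged 137 ± 69.8 in the IM and 1329 ± 505 in the SAM (log2 fold change -3.28 ± 0.38, adjusted p = 4.3e-17). *CKX3*, a degrading oxidase of the meristem, rose (73.7 ± 30.7 in the IM and 4.90 ± 1.79 in the SAM, log2 fold change 3.91 ± 0.47, adjusted p = 4.2e-16). Of 22 tested gibberellin genes 4 were higher, 3 lower and 7 stable (median 0.14). *RGL2*, a DELLA repressor, had 1199, 1291, 1210.3, 1148 and 1158 normalised counts in the IM, against 184, 117, 169, 147 and 168 in the SAM (log2 fold change 2.94 ± 0.10, adjusted p = 1.8e-179). The receptor gene *GID1B* rose (897 ± 137 in the IM and 227 ± 40.3 in the SAM, log2 fold change 1.98 ± 0.14, adjusted p = 1.4e-45). *GA3OX1*, which makes active gibberellin, averaged 31.2 ± 3.83 in the IM and 270.1 ± 62.1 in the SAM (log2 fold change -3.12 ± 0.20, adjusted p = 3.9e-54). Inactivating oxidases went both ways, with *GA2OX8* at 2.34, *GA2OX4* at -1.50 and *GA2OX6* at -4.34.

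**Figure D4:**
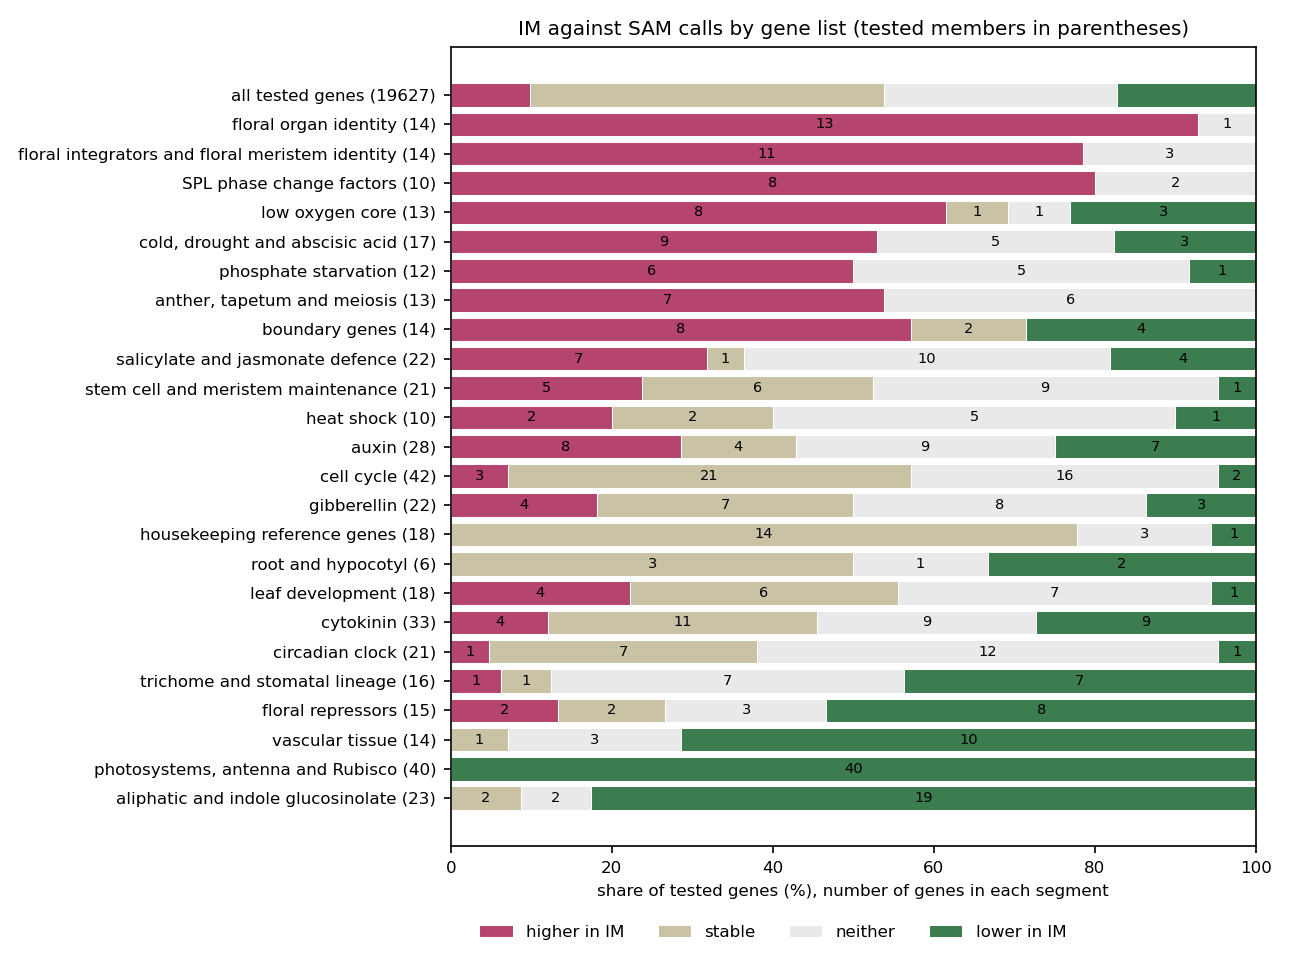
Share of tested genes (horizontal, percent, with the number of genes in each segment) that were higher in the IM, stable, neither or lower in the IM, for all tested genes on top and for each of the 24 gene lists in order of median log2 fold change. Floral organ identity is almost wholly higher (13 of 14), photosynthesis wholly lower (40 of 40) and housekeeping genes mostly stable (14 of 18).

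Among 42 cell cycle genes, 21 were stable by the 1.5-fold equivalence test, beside 44% of all tested genes, and 3 were higher and 2 lower (median 0.20), and without IM 4 none was lower. *CDKA;1*, the main cyclin-dependent kinase, had 1602, 1707, 1699, 1685 and 1868 normalised counts in the IM, against 1567, 1829.7, 1610.1, 1821 and 1746 in the SAM (stable, log2 fold change 0 ± 0.066). *CYCD3;1* averaged 2817 in the IM and 3007 in the SAM and was stable. Its relative *CYCD3;3* had 5384, 4624, 5074, 4952 and 5384 normalised counts in the IM, against 1730.5, 1682, 1835, 2139 and 1934 in the SAM (log2 fold change 1.45 ± 0.075, adjusted p = 4.2e-81). The inhibitor genes *KRP3* (1.15) and *KRP5* (1.48) were higher. *CYCA2;1* (-1.04) and *SMR1* (-1.02) were the lower 2, both close to the 2-fold limit. The mitotic cyclin *CYCB1;1* averaged 1834 ± 118 in the IM and 1251 ± 58.6 in the SAM and was not called (0.55).

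Clock genes had 1 higher, 1 lower and 7 stable of 21 (median -0.27), beside 9.87% higher, 17.2% lower and 44% stable of all tested genes. Tissue was taken in the same window of the day on each harvest day, and *TOC1*, the evening gene of the oscillator, was stable at 4167 ± 308 in the IM and 4772 ± 275 in the SAM. *LHY*, the morning gene, had 115, 115, 108, 132 and 138 normalised counts in the IM, against 17.9, 45.2, 49, 62.3 and 69.9 in the SAM (log2 fold change 1.31 ± 0.26, adjusted p = 1.2e-06). Its partner *CCA1* averaged 72.6 ± 18.8 in the IM and 99.9 ± 18.5 in the SAM and was not called (-0.48). *PRR5* averaged 1689.8 ± 202 in the IM and 3919.6 ± 178 in the SAM (log2 fold change -1.21 ± 0.083, adjusted p = 1.7e-47). *GI*, an evening gene, averaged 3510.2 ± 366 in the IM and 4999.6 ± 298 in the SAM (-0.51, not called).

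Core histone genes were higher for 23 of 41 tested, lower for none and stable for 3 (median 1.1), which is 56.1% beside the 9.87% of all genes. The histone H3 gene *HTR11* (log2 fold change 1.73) and the H2B gene *HTB1* (1.49) were among the higher members. The S-phase genes on the cell cycle list, named here after their values were seen, were the replication factors *MCM2* to *MCM7* and *PCNA1* and *PCNA2*, which had log2 fold changes of 0.48 to 0.79, none of them called. Of 48 annotated histone promoters 58.3% held the MSA core AACGG, a motif of MYB factors of the cell cycle searched on both strands, beside 24.7% of all promoters. The promoter of the H2A gene *HTA13* (chr3:7229190-7229389, plus strand, log2 fold change 1.21) is shown with its motif in capitals.
HTA13: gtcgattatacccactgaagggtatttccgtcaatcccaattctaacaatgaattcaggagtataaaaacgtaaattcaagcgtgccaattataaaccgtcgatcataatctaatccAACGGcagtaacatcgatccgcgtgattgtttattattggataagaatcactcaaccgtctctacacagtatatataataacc
In the IM of *plt3 plt7* 11 histone genes were higher, and without IM 4 the wild type had 26.

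Cytosolic ribosomal protein genes had the highest stable share of the 19 families read from the annotation. Of 115 tested, 92 (80.0%) were stable, 2 higher and 4 lower (median 0.15). The first exception was AT3G28500, a 60S acidic ribosomal protein of the P family, which had 11997, 10945, 9673, 9037 and 9775 normalised counts in the IM, against 28.9, 32.6, 19.8, 22.1 and 23.8 in the SAM (log2 fold change 8.66 ± 0.17, adjusted p too small to store). The second, AT2G07696, lies in a stretch of chromosome 2 whose sequence also occurs in the mitochondrial genome. The 4 lower genes were AT1G53560 and AT3G14595 (both L18ae family), *EMB3126* (L1p/L10e family) and AT3G13120 (S10p/S20e family). The annotation text names no compartment for them and does not separate plastid-targeted members from the rest. They may therefore not all be cytosolic. Site II, written TGGGCC or TGGGCT, and the telo-box AAACCCTA, both searched on both strands, are elements known from promoters of growth-related plant genes. They were found in 68.3% and 41.5% of 123 ribosomal promoters, beside 21.7% and 6.22% of all promoters. The promoters of the stable genes AT5G16130 for protein S7e (chr5:5268221-5268420, plus strand, log2 fold change 0.18) and AT5G27700 for S21e (chr5:9808514-9808713, minus strand, 0.14), are shown with both motifs in capitals, in either orientation.
AT5G16130: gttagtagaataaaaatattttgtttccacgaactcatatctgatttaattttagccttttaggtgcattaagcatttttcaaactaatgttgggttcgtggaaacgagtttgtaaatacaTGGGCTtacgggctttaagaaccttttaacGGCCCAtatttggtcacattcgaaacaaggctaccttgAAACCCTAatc
AT5G27700: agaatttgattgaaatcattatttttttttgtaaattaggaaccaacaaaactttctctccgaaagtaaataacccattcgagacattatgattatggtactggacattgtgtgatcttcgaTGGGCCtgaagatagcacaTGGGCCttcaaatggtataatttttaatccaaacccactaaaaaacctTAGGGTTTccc
Over the whole transcriptome, site II was found in 17.0% of 1918 higher, 16% of 3340 lower and 32.2% of 8623 stable genes with a promoter. The MSA core was at 23.4%, 22.1% and 28.8%, and the telo-box at 4.22%, 3.08% and 7.24%. The LFY site CCANTG (25.2%, 26.0% and 26.2%) and the CArG box of MADS factors (2.97%, 3.11% and 3.57%) lay within about a percentage point between these sets, and the evening element AAAATATCT was at 3.81%, 3.74% and 2.66%.

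**Figure D5:**
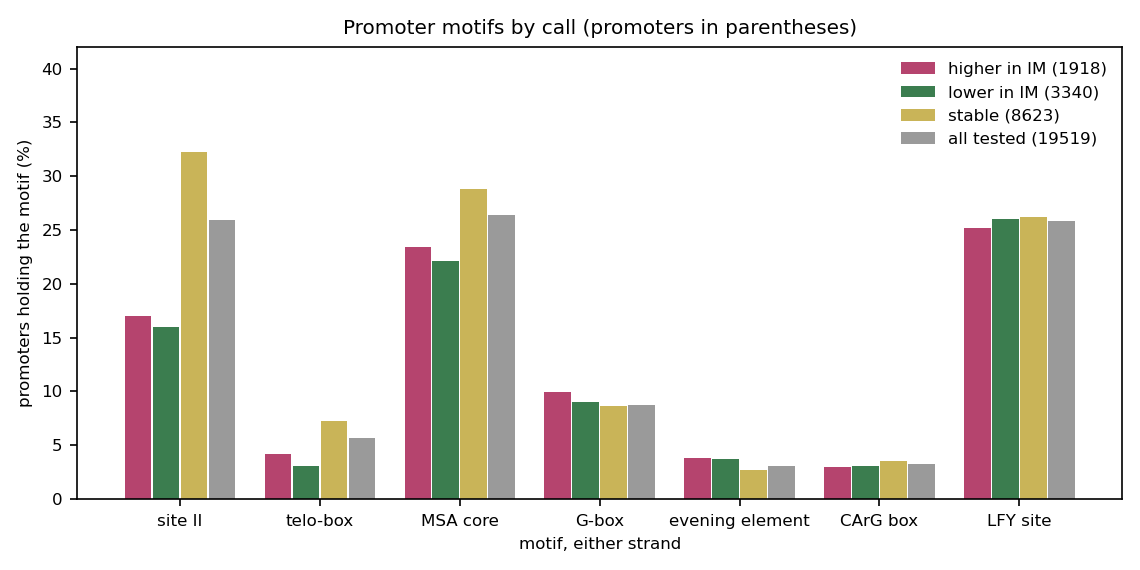
Percentage of promoters (vertical, 250 bases before to 50 after the annotated start) that hold each of 7 motifs on either strand, for genes higher in the IM, lower in the IM, stable and all tested. Site II is at 32.2% of stable genes, 17.0% of higher and 16% of lower genes, and the LFY site and CArG box bars are nearly level.

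The 5 stable genes with the smallest equivalence p were *TMN1* of the endomembrane system, the translation release factor *ERF1-2*, AT2G20360 with a Rossmann fold, the spliceosome-associated AT4G21660 and *HIP1*, an HSP70 partner. *HIP1* had 7233, 7494, 7534, 7060.3 and 7219.7 normalised counts in the IM, against 7601, 7203, 7172, 7352 and 7066 in the SAM (log2 fold change 0.01 ± 0.038). *ERF1-2* averaged 4982 ± 125 in the IM and 5064 ± 149 in the SAM (-0.02). Of 18 reference genes commonly used for normalisation, 14 were stable and 1 was lower. The polyubiquitin gene *UBQ10* averaged 37061 ± 1431 in the IM and 32337 ± 1799 in the SAM. The phosphatase subunit gene *PP2AA3* averaged 2328 ± 75.8 in the IM and 2649.6 ± 134 in the SAM, and the actin gene *ACT7* 28452 ± 1092 in the IM and 23805 ± 753 in the SAM, all stable. *ACT2* was the exception, with 6449, 6371, 6478, 7004 and 6423 normalised counts in the IM, against 18014, 18381, 18154, 18548 and 15922 in the SAM (log2 fold change -1.44 ± 0.054, adjusted p = 2.8e-158). The glycolysis gene *GAPC2* averaged 24743 ± 695 in the IM and 43476 ± 1484 in the SAM (-0.81, not called).

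Families of transcription factors are given by their counts, beside 9.87% higher and 17.2% lower of all tested genes. MADS-box genes had 22 higher and 4 lower of 40 tested (median 1.28). B3 and REM factors had 31 higher and 2 lower of 55 (median 1.38), with the higher ones including AT2G16210, AT5G57720 and *REM22*, of a family known largely from reproductive meristems. ERF and AP2 factors had 9 higher and 24 lower of 69 (median -0.42), and NAC factors had 8 higher and 18 lower of 62. MYB factors had 28 higher and 20 lower of 85, bHLH factors 24 each of 103, and WRKY factors 8 higher and 12 lower of 46. Of families outside transcription, expansins, which loosen cell walls, had 4 higher and 9 lower of 19 (median -0.81), with *EXPA11* (-5.82), *EXLB1* (-5.45) and *EXPA8* (-3.41) among the losses and *EXPA20* (1.68) among the gains. Cytochrome P450 genes had 30 higher and 53 lower of 142, peroxidases 12 and 18 of 40, glutathione S-transferases 6 and 13 of 43, pectin-modifying enzymes 19 and 25 of 110 and heat shock proteins 20 and 9 of 125.

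By the number of normalised counts moved rather than by fold, other genes led, and those named here were chosen after their values were seen. *VSP1* and *BGLU18*, a beta-glucosidase that releases abscisic acid, led the gains, and *BGLU18* averaged 104300 ± 18790 in the IM and 17489 ± 2266 in the SAM (log2 fold change 2.58 ± 0.12, adjusted p = 7.1e-94). *FLR1*, a leucine-rich repeat protein of floral organs, averaged 54655 ± 4481 in the IM and 2778 ± 600.2 in the SAM. *MBP2*, a myrosinase-binding protein, averaged 38048 ± 5486 in the IM and 408 ± 28.3 in the SAM. *TT4*, chalcone synthase of the flavonoid pathway, averaged 22227 ± 2901 in the IM and 1853 ± 385 in the SAM (log2 fold change 3.58 ± 0.13, adjusted p = 1.7e-155). Losses included those of *LHCB1.3*, *RBCS1A* and *THI1*, a thiamine synthesis enzyme of chloroplasts (36295 ± 3108 in the IM and 130450 ± 8602 in the SAM, log2 fold change -1.85 ± 0.07, adjusted p = 9.3e-153). *CAT3*, a catalase, fell as well (39161 ± 6486 in the IM and 88449 ± 7185 in the SAM, log2 fold change -1.18 ± 0.10, adjusted p = 2.3e-29). *PYK10*, the beta-glucosidase of endoplasmic reticulum bodies in seedlings and roots, had 6.46, 18.7, 19.4, 267 and 54.6 normalised counts in the IM, against 42308, 63024, 54476, 55502 and 48220 in the SAM (log2 fold change -9.50 ± 0.97, adjusted p = 7.3e-22). IM 4 was the highest IM library of *PYK10*, and every IM value was below every SAM value.

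The same comparison in *plt3 plt7* gave close values. Of 19689 genes tested there, 1841 were higher and 3584 lower in the IM, 27.6% in both directions together. Of 5195 Col-0 calls that were tested in both genotypes, 5189 had the same sign and 4750 (91.4%) were called the same way, given here as a description. Beside this 27.6%, *plt3 plt7* had calls for 13 of the organ identity genes and all 40 photosynthesis genes. A test of the difference itself, the genotype by tissue term over all 20 libraries, called 42 of 20348 genes (0.206%), and 29 of these were also called in Col-0. At an unadjusted p under 0.05 it gave 1688 genes, and edgeR called 5 after adjustment. *FTM1* had the largest difference among the 5 with the smallest p. Its IM over SAM log2 fold change was 2.45 in *plt3 plt7* and 5.90 in Col-0 (difference -3.45 ± 0.50, adjusted p = 4.8e-08). The hexokinase-like gene *HXK3* fell further in *plt3 plt7* (-3.48) than in Col-0 (-1.96, difference -1.53 ± 0.22, adjusted p = 5.4e-08). AT4G33560, of a wound-responsive family, was at 2.30 in *plt3 plt7* and 4.64 in Col-0 (-2.34 ± 0.35, adjusted p = 1.3e-07). AT4G19200, a proline-rich protein, was lower in the IM of *plt3 plt7* (-1.12) and stable in Col-0 (0.08, difference -1.19 ± 0.14, adjusted p = 1.2e-13). AT4G03610, a metallo-hydrolase with 36.2% of its words shared, was at -1.44 in *plt3 plt7* and -3.28 in Col-0 (1.85 ± 0.32, adjusted p = 2.8e-05).

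Some members of the lists above were also among the 42. *FLC* was at -2.33 in *plt3 plt7* and -3.59 in Col-0 (1.26 ± 0.25, adjusted p = 0.0009), so its loss in the IM was smaller in the mutant. Of the low oxygen list, *ADH1*, *PCO2* and *PCO1* rose less in *plt3 plt7*, with *ADH1* at 2.2 in *plt3 plt7* and 3.4 in Col-0 (-1.2 ± 0.24, adjusted p = 0.00079), *PCO2* at 2.28 in *plt3 plt7* and 3.79 in Col-0 (-1.51 ± 0.30, adjusted p = 0.0012) and *PCO1* at 2.26 in *plt3 plt7* and 3.17 in Col-0 (-0.91 ± 0.23, adjusted p = 0.042). *HB1* of the same list was at -3.35 in *plt3 plt7* and -1.32 in Col-0 (-2.05 ± 0.47, adjusted p = 0.017).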

How the data were processed

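RNA-seq libraries were made from hand-dissected pools of meristems with a directional (strand-specific) library kit. The authors trimmed reads with fastp 0.23.4 and quantified them with kallisto 0.46.1 against TAIR10 transcripts, per their processing notes. Each deposited table lists, per transcript, an estimated count (not normalised) and a TPM value (scaled by the authors for transcript length and depth). Here both were summed to the locus, and estimated counts were rounded to whole numbers. kallisto shares reads among similar transcripts, so genes with shared sequence are uncertain.

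The main test was DESeq2 1.42.0 (the tool of the study) in R 4.3.3 with median-of-ratios size factors, on genes that reached 10 counts in 5 or more of the 10 libraries. Calls needed a Benjamini-Hochberg adjusted p under 0.05 and a 2-fold change. Stability was tested with DESeq2's equivalence test (1.5-fold). edgeR 4.0.16, other scalings, filters and fits and leaving out each library were alternatives. Python 3.11.15, pandas 2.3.3, numpy 2.4.6 and scipy 1.17.1 were used for the rest. Replicates are pools from separate days. Same-numbered IM and SAM libraries were checked for pairing, and the correlation of their deviations was over 0.1 for 1 of 5 pairs, so no block was used. Counting intervals and floors (3 counts per library) cover counting error only. The test script was tested on simulated data.

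The gene lists and members were chosen with earlier results of these data known. Named genes were, per list, up to 6 called members with the largest log2 fold change and classical members, the 10 largest gains and losses with a symbol and at least 100 normalised counts, 5 stable genes of at least 1000, 5 genes of each tissue alone, and the 5 smallest p of the genotype by tissue term. Families were read from RefSeq annotation text. Promoter sequence came from RefSeq TAIR10.1. Tables of the *plt3 plt7* libraries served only the comparison of genotypes.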

Additional observations from a re-analysis of the deposited data

Results flagged for a closer look

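In 30 of 324 groups of 5 values checked (9.26%), 1 library lay farther from the other 4 than Dixon's limit for 5 values allows, and chance alone sets about 1 in 20 groups apart. Values are normalised counts, with the range of the other 4 libraries of the same tissue. IM 4 stood apart for *GA2OX6* (23.7, high, with 0 to 6.07 in the rest), *HAI2* (308, high, with 185 to 207 in the rest), *RD20* (1220, high, with 324 to 492 in the rest), *RAX2* (228, high, with 171 to 184 in the rest), *PYK10* (267, high, with 6.46 to 54.6 in the rest), *ACT2* (7000, high, with 6370 to 6480 in the rest) and *CYCA2;1* (67.8, low, with 107 to 122 in the rest). IM 2 stood apart for *XCP2* (504, high, with 340 to 385 in the rest), *AMS* (1090, high, with 280 to 398 in the rest), *PHO1* (82.5, high, with 18 to 33.9 in the rest), AT4G21660 (5220, low, with 5490 to 5580 in the rest), *XCP1* (98.1, high, with 48.5 to 61.8 in the rest) and *A9* (443, high, with 40.7 to 106 in the rest). IM 1 stood apart for *PAP17* (1430, high, with 1070 to 1160 in the rest), *VSP2* (15800, low, with 21100 to 22000 in the rest) and *AGL42* (710, high, with 554 to 585 in the rest). IM 3 stood apart for *SEP2* (3670, low, with 3970 to 4060 in the rest) and *KIN1* (421, high, with 229 to 275 in the rest). SAM 1 stood apart for *EPF1* (82.6, high, with 27.2 to 38.9 in the rest), *LOG1* (1540, high, with 871 to 1060 in the rest), *LOX2* (5240, high, with 767 to 1540 in the rest), *RBCS3B* (146000, high, with 53800 to 78300 in the rest), *RBCS1B* (35600, high, with 15700 to 20800 in the rest) and *HAI1* (84, high, with 42.8 to 54.1 in the rest). SAM 2 stood apart for *JAL22* (5960, high, with 4300 to 4470 in the rest) and *PDC1* (27.6, high, with 14 to 17.9 in the rest). SAM 4 stood apart for *CIB1* (656, high, with 547 to 569 in the rest). SAM 5 stood apart for *ACT2* (15900, low, with 18000 to 18500 in the rest). Mean fragment length stood apart in IM 4 (430.0 nt, with 350.8 to 368.9 nt in the rest) and in SAM 4 (432.3 nt, with 412.7 to 413.8 nt in the rest). The calls of these genes that were lost or gained without the library concerned are given with the processing alternatives.

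For 10 genes named in the text the IM over SAM log2 fold change differed between *plt3 plt7* and Col-0 by the genotype by tissue test of DESeq2. The difference was -3.45 for *FTM1*, -2.34 for AT4G33560, -2.05 for *HB1*, -1.53 for *HXK3*, -1.51 for *PCO2*, -1.2 for *ADH1*, -1.19 for AT4G19200, -0.91 for *PCO1*, 1.26 for *FLC* and 1.85 for AT4G03610. No explanation of these differences was tested.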

How the results depend on the processing

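Of 3454 values of 176 named genes under other settings, 3429 kept their direction and their side of the threshold and none reversed. The 7 genes that changed lay near 2-fold or lost a test. *CLV1* passed without SAM 4 or SAM 5 (-1.0 and -1.01), *ANT* passed with total counts (1.17), and *TFL1* passed under 9 alternatives (1.0 to 1.22). *SMR1* missed under 8 (-0.79 to -1.0), *CYCA2;1* under 3, among them without IM 4 (-0.82 to -0.97), and *PRR5* with total counts (-0.99). *FSD1* had no adjusted p in the joint fit of 20 libraries. The cause of these changes was not tested, apart from the nearness to the limit.

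Calls were 1973 higher and 3338 lower with edgeR. A minimum of 10 counts in all 10 libraries, which removes genes absent from one tissue, left 1169 higher and 2545 lower. An adjusted p under 0.1 with a 25% change gave 11230 calls (5233 higher and 5997 lower), and a 4-fold limit gave 2360 (942 higher and 1418 lower), both by construction. Stable genes numbered 3180 with an equivalence limit of 25% in place of 1.5-fold. By at least 10 against under 3 counts in every library, 178 genes were present only in the IM. The genotype by tissue term called 5 genes with edgeR. Total counts moved the median of all genes to 0.24, and by this the medians of the WRKY, NAC and bHLH lists to 0.18, 0.19 and 0.13 and of pectin enzymes to 0.07, all below 0 otherwise (-0.06, -0.02, -0.10 and -0.16).

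With a replicate block the calls were 1943 higher and 3388 lower, and with the replicate block and a length offset 1919 and 3382. The block did not change a call of a named gene. Same-numbered libraries correlated by -0.139 to 0.148, and 2 of 5 IM libraries correlated best with their own number.

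Leaving out each library in turn gave 5186 to 5388 calls (1884 to 1950 higher and 3243 to 3482 lower, 35.4 to 37.5% higher), 8305 to 8582 stable genes and 207 to 237 genes present in one tissue (107 to 117 in the IM and 96 to 125 in the SAM). IM minus SAM differences ran from -57.81 to -38.01 nt for fragment length, 318.5 to 531.3 for genes with 10 counts, 6.656 to 17.01 megacounts for depth, -0.8147 to -0.7013 percentage points for plastid and 0.00767 to 0.00947 for mitochondrial counts, and -1.395 to -0.9786 for the share of the 10 top genes. The difference in genes with at least 1 TPM, 57.8, was -35.85 without IM 4 and at most 122.7.

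Depth limits genes near the minimum of 10 counts, such as *CLV3*, *FT* and *PR1*, and the IM depths spread more than the SAM depths. Only 5 libraries a group bound the precision of every value.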

Other observations

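Neighbouring genes were looked at after the values were known. Taking tested genes in chromosome order, 18 runs of at least 5 neighbours were all lower in the IM and 6 runs were all higher. Of the 6, 3 lie together on chromosome 2 between positions 3247003 and 3502294 of TAIR10.1. In that window 52 genes were tested, 45 of them were higher in the IM and none was lower (median log2 fold change 1.79), and in *plt3 plt7* 31 were higher (median 1.38). All 52 shared at least 92.1% of their words of 31 bases with the mitochondrial genome, and of 2893 tested genes elsewhere on chromosome 2 only 4 shared 90% or more. Mitochondrial genome genes themselves were higher for 18 of 21 tested, at a share of counts of 0.0139 ± 0.00284% in the IM and 0.00498 ± 0.000622% in the SAM (n = 5 each, exact permutation test, two-sided p = 0.00794). Reads of the window and of the mitochondrion cannot be told apart by these words, and 1893 of the 1938 higher genes lie outside it.

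The longest run of lower genes, with 10, lies on chromosome 4 between 11844242 and 11866475. It holds 6 genes of the lipid-transfer and protease inhibitor superfamily, for which the annotation gives no function. AT4G22490, the only one of the 6 with no shared words and no overlapping gene, had 0.718, 7.79, 3.08, 0 and 1.01 normalised counts in the IM, against 11323, 15856, 13316, 10093 and 15057 in the SAM (log2 fold change -12.22 ± 0.40, adjusted p = 1.4e-199, DESeq2). AT4G22505 was at 0 in every IM library and averaged 29430 ± 5536 in the SAM, at least 12000-fold lower in the IM, although 93.9% of its words are shared with other genes. AT4G22513 and AT4G22517 averaged 12055 and 13662 in the SAM. Both overlap a gene on the other strand and are uncertain. Per length AT4G22517 stood at 1564 TPM in the SAM and AT4G22513 at 1323 TPM.

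A run of 7 lower genes on chromosome 3, between 5562400 and 5595912, joins nitrile specifier and jacalin lectin genes. These are known as partners of the glucosinolate and *PYK10* defence systems, and none was on a list. *NSP1* averaged 2337 ± 768 in the IM and 16002 ± 2043 in the SAM (log2 fold change -2.78 ± 0.23, adjusted p = 2.1e-33), *PBP1*, the PYK10-binding protein, 377 ± 401 in the IM and 28173 ± 2820 in the SAM (log2 fold change -6.22 ± 0.69, adjusted p = 8.1e-19), and *JAL34* 30.4 ± 28.7 in the IM and 9458 ± 1571 in the SAM (log2 fold change -8.31 ± 0.49, adjusted p = 2.4e-63). IM 4 was the highest IM library of *PBP1*, with 1068.5 normalised counts against 79.0 to 371 in the other IM libraries. *NSP1* shares 36.9% of its words with other genes. *JAL34* shares 20.2% and overlaps a gene on the other strand, so the estimates of both are uncertain.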
